A study of Mus musculus with 10 samples.

Results

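The RNAs described here are the long intergenic non-coding RNAs (lincRNAs) that reached a set level in regulatory T cells (Tregs) sorted from mouse colon tumours. The members are genes that the deposited table types as lincRNA and that had 5 CPM (the count over the library total times 1000000) or more in at least 4 of the 5 Tumor libraries, so they were chosen by their measured Tumor level. The rule was met by 147 of the 5559 lincRNA genes (2.64%) in a table of 54532 genes. Because of that choice their Tumor levels are given as a description and support nothing.

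lincRNAs are transcripts from between the protein-coding genes that carry no long open reading frame. Some act in the nucleus, such as Malat1 in nuclear speckles and Neat1 as the scaffold of paraspeckles, some act on a neighbouring gene, and some are the spliced remains of transcripts from which a microRNA or a small nucleolar RNA (snoRNA) is cut. In T cells lincRNAs are known chiefly as transcripts whose presence follows cell type and activation, and most carry only a provisional name.

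Libraries were made by Smart-seq2 from male C57BL/6 colon Tregs at 16 weeks, sorted as CD45+CD3+CD4+CD25+GFP+. The 5 Tumor samples came from colon tumours of Apc Min/+ mice that carried Foxp3 DTR, and the 5 WT samples from mice with Foxp3 DTR alone, labelled WT for genotype. Foxp3 DTR, which places the diphtheria toxin receptor under the Foxp3 gene, was thus in both groups, and Apc Min/+ is a germline mutation carried by all cells of the animal and not a model made in Tregs. No label says that the samples of a group were separate animals, so p-values measure only the spread between these samples.

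Library totals were 3054435 to 7747699 counts in Tumor and 1676229 to 8412887 in WT. Summed CPM of 7 sort markers (Ptprc, Cd3d, Cd3e, Cd3g, Cd4, Il2ra and Foxp3) was 3195 to 4271 in the Tumor libraries and 129 to 1296 in the WT libraries, so this sum was lower in every WT library. Foxp3 itself, the factor that defines Tregs, had 35.9 to 117 CPM in Tumor and 3.33 to 40.4 CPM in WT. Over 16 epithelial markers the sums were 39.0 to 5189 in Tumor and 167 to 34440 in WT, highest in WT replicates 1 and 2. Over 12 macrophage and monocyte markers they were 1341 to 6070 in Tumor and 67.7 to 171 in WT, and over 12 B and plasma cell markers 81.2 to 1348 in Tumor and 130 to 9401 in WT, highest in WT replicate 3. For dendritic cells they were 204 to 469 in Tumor and 52.2 to 399.7 in WT, for stromal and endothelial cells 110 to 346 and 133 to 470, for neutrophils and mast cells 99.4 to 1809 and 96.3 to 318, and for red cells 0.655 to 1267 and 4.72 to 27.1. In these lists no marker was at 0 in all libraries of a group. These differences lie alongside every comparison of Tumor with WT below, and their part in the results was not tested. In bulk samples fewer cells of a type and less RNA per cell cannot be told apart.

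Among the 147 lincRNAs, 65 had 5 CPM or more in all 5 Tumor libraries and 82 in exactly 4. Just inside the threshold, the fourth highest Tumor level was 5.004 CPM for Gm11228 and 5.005 CPM for Gm805 and for Gm15232. Just outside it, the same value was 4.91 CPM for Gm29825, C78859 and Gm15328. Mean Tumor level was under 10 CPM for 36 members, 10 to 20 CPM for 65, 20 to 50 CPM for 33, 50 to 100 CPM for 4 and above 100 CPM for 9. The deposited table gives 130 of the members a predicted, Riken or clone name, though some of them, such as Gm14005 (Morrbid) and 2900097C17Rik (Norad), have another name elsewhere.

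The same rule applied to the 5 WT libraries was met by 291 lincRNAs (5.23%). Both lists held 91, which is 61.9% of the Tumor list and 31.3% of the WT list. To see what 5 CPM amounts to, the 1466 odorant and vomeronasal receptor genes of the table (Olfr, Vmn1r and Vmn2r), whose expression is known from sensory neurons, were put through the rule. It was met by 172 of them (11.7%) in Tumor and by 358 (24.4%) in WT, beside 48.1% of the 22046 protein-coding genes in Tumor. A level of 5 CPM in 4 libraries was thus reached by a part of these sensory genes, and by more of them in WT.

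Because reads spread evenly over the genome would fall on a gene in proportion to its length, each lincRNA was also compared per kilobase. A lincRNA counted as above background in a library when its CPM per kb was above the 95th percentile of the receptor genes of that library. That percentile was 2.95 to 8.87 CPM per kb in the Tumor libraries and 3.47 to 22.3 in the WT libraries, highest in WT replicates 3 and 5, the libraries with the lowest totals. By this measure 41 of the 147 members (27.9%) were above background in at least 4 Tumor libraries, and 27 of them in all 5. A further 44 members were above it in none of the Tumor libraries. In WT 13 members passed in at least 4 libraries, 10 of them among the 41. Without WT replicate 3, or without WT replicate 5, the WT number was 23 (at least 3 of the 4 libraries left). The receptor genes themselves passed in 2 cases (0.136%) in Tumor and in 6 (0.409%) in WT. That this share is low was fixed by the measure, because the percentile was taken from these same genes. Protein-coding genes meeting the 5 CPM rule passed in 37.2% of cases in Tumor. Since the rule fixed the Tumor level, the Tumor share describes how the members were chosen.

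**Figure D1:**
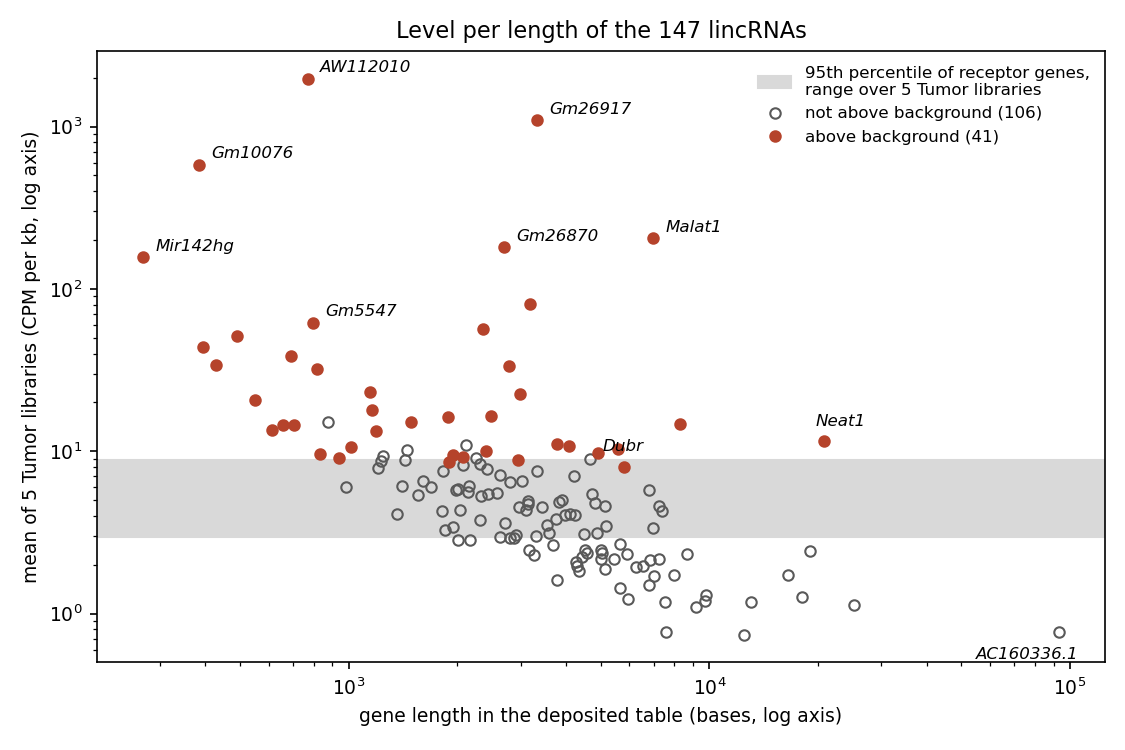
Mean level of each of the 147 lincRNAs over the 5 Tumor libraries (CPM per kb, log axis) against its gene length in the deposited table (bases, log axis). Filled points are the 41 members above background in at least 4 Tumor libraries, open points the other 106, and the grey band is the range of the background percentile, 2.95 to 8.87 CPM per kb. Of the 8 members of 10000 bases or more only Neat1 is filled.

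The 2 kinds of member differed in length, which the measure itself uses. The median gene length was 1888 bases for the 41 above background, 3767.5 for the other 106 and 1038 for all lincRNAs of the table. Of the 17 members under 1000 bases, 15 were above background, and of the 8 members of 10000 bases or more only Neat1 was. The extreme was AC160336.1, a model of 93147 bases in a single exon block. It had 86.4, 85.8, 42.5, 57.6 and 89.1 CPM in Tumor replicates 1 to 5 and 85.0, 48.3, 204, 166 and 375 CPM in WT replicates 1 to 5, and per kb its means were 0.776 CPM in Tumor and 1.89 CPM in WT. It ranked among the most counted members and was above background in no library. AC160336.1 was singled out after its values were seen.

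**Figure D2:**
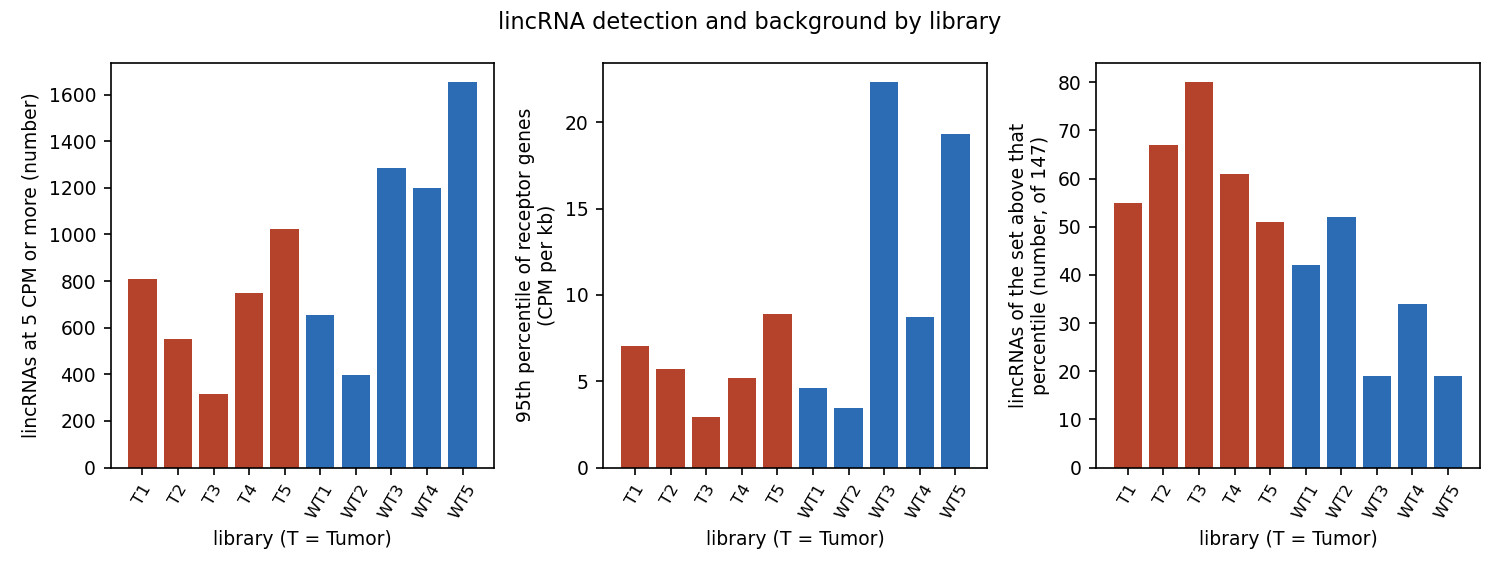
For each library (T1 to T5, Tumor; WT1 to WT5), bars give the number of lincRNAs at 5 CPM or more, the 95th percentile of the receptor genes (CPM per kb) and the number of the 147 lincRNAs above that percentile. WT replicates 3, 4 and 5 had 1285, 1200 and 1653 lincRNAs at 5 CPM but 19, 34 and 19 of the members above background, and Tumor replicate 3 had 317 and 80.

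The counts of the set sat on few genes. Gm26917, AW112010 and Malat1 together took 51.8% to 66.7% of the members' counts in Tumor and 15.7% to 63.1% in WT. Gm26917, a model on a fixed list labelled ribosomal RNA related, had 2887, 4723, 3061, 2322 and 5288 CPM in Tumor. In WT it had 2031, 2483, 1739, 1335 and 1298 CPM. The 2 groups overlapped only through Tumor replicate 4 and WT replicate 2, and the log2 fold change of 1.12 ± 0.73 (SE) was not called (edgeR adjusted p = 0.456).

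Malat1, the nuclear speckle RNA and one of the most abundant RNAs of most mammalian cells, had 893, 1144, 1099.7, 2437 and 1601 CPM in Tumor and 1247, 1688, 919.9, 2257 and 469 CPM in WT. The ranges overlapped almost whole, with a log2 fold change of 0.17 ± 0.73 (edgeR adjusted p = 0.929). Neat1, the paraspeckle scaffold, had 157, 175, 181, 380.2 and 312 CPM in Tumor. In WT it had 832 and 718 CPM in replicates 1 and 2, the libraries with the highest epithelial marker sums, and 108, 187 and 69.7 CPM in replicates 3 to 5. Its log2 fold change was -0.81 ± 0.79 (edgeR adjusted p = 0.627), 1.26 without WT replicates 1 and 2 (adjusted p = 0.208), and -1.89 without WT replicates 3 to 5 (adjusted p = 0.0022), where it was called lower. The part of epithelial RNA in the Neat1 values was not tested.

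The proteins that work with these 2 RNAs were given from fixed lists. Of 18 paraspeckle protein genes tested 0 were called by edgeR, with 5 higher and 0 lower at an unadjusted p under 0.05, where 7.75% of all genes were higher and 8.31% lower, and 0 by DESeq2 or limma voom. Of 16 nuclear speckle protein genes 0 were called by edgeR, DESeq2 or limma voom, with 1 higher and 0 lower at an unadjusted p under 0.05. Their median log2 fold changes were 1.15 and 0.92, where that of all 21414 genes tested was -0.20. With the libraries scaled to pan-T markers (explained below) they were -2.57 and -2.46.

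Gm26870 and Gm10076 share sequence with other genes, which limits what their counts can be assigned to. Gm26870 (chr9:3000282-3038313, minus strand) spans a block of predicted genes on the other strand, among them Gm10717, Gm10719 and Gm10722, which cover 54.6% of its exon bases. Its level ran from 176 to 1062 CPM in Tumor. In WT it was 678, 124, 2132, 5249.6 and 5274 CPM, and the high libraries were again WT replicates 3 to 5. Its log2 fold change was -2.10 ± 0.92 (edgeR adjusted p = 0.269), and 0.20 without WT replicates 3 to 5. The share of all counts on Gm10800 was 0.844% to 5.77% in Tumor and 0.931% to 26.5% in WT. Gm26870 and Gm10800 are on the list labelled ribosomal RNA related, with Gm26917. That label is only the name of the list. Whether any of these models holds ribosomal RNA was not tested, so their counts are not read as ribosomal RNA. Gm10076, of 384 bases, matched the ribosomal protein gene Rpl41 over 99.7% of its length at 95% identity or more, so its reads and those of Rpl41 cannot be told apart. Its levels were 361, 129.6, 229.7, 89.8 and 309 CPM in Tumor and 169.8, 133, 173, 195 and 77.2 CPM in WT, which overlap. The log2 fold change was 0.67 ± 0.60 (edgeR adjusted p = 0.597).

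The comparison of Tumor with WT was fitted over all 21414 genes that passed a filter on low counts, and all 147 members passed it. In simulated data this fit called 0% of 4-fold changes, so a gene not called may still differ. At an adjusted p under 0.05 edgeR's quasi-likelihood test called 5 members (3.4%), where it called 1.59% of all genes tested. All 5 were higher in Tumor, the direction of 1.37% of all genes, and 0 were lower, the direction of 0.219%. At an unadjusted p under 0.05, 21 members were higher and 6 lower, beside 7.75% and 8.31% of all genes. Members were picked for a high Tumor level and not for their WT level, which by itself favours higher values in Tumor, so nothing about lincRNAs as a class is read from the count. All Tumor libraries were above all WT libraries for 11 members, as for 4.26% of all genes tested, and the reverse held for 0 members, as for 1.59% of all genes. The 5 called lincRNAs were AW112010, Gm5547, Gm26809, Gm11707 and Dubr. DESeq2 called 11 members higher and 3 lower, beside 3.49% and 4.94% of all genes, and limma voom 8 higher and 0 lower, beside 2.12% and 0.112%. Without the filter on low counts edgeR called 8 higher and 0 lower, beside 0.934% and 0.665% of all genes.

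The count depended on the libraries. Without WT replicates 1 and 2, 7 members were called higher and 2 lower (Gm26870 and 9330158H04Rik), beside 6.37% and 1.49% of all genes. Without WT replicates 3 to 5, 10 were called higher and Neat1 lower, beside 2.32% and 2.09%. With 1 library left out at a time 1 to 6 were called higher, and it was Gm5547 alone without Tumor replicate 3 or without WT replicate 1. In a further fit the median receptor gene density of each library times gene length was subtracted from the counts. There edgeR called 0 of the 141 members still tested, and 0.0% of all genes. At an unadjusted p under 0.05, 8 members were higher and 6 lower. The share of all genes at that level was not counted for this fit, so nothing is read from these numbers.

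AW112010 (ENSMUSG00000075010, chr19:11047617-11050566, minus strand, 4 exon blocks) is an interferon-induced transcript known from activated T cells and macrophages. It had 1073, 1878, 2085, 1727 and 841 CPM in Tumor and 125, 161, 91.9, 211 and 5.76 CPM in WT. The lowest Tumor library was above the highest WT library, and per length it was the highest of all members at 1975 CPM per kb in Tumor against 154 in WT (means of 5). The log2 fold change was 3.77 ± 0.91 (edgeR adjusted p = 0.0412). Leaving out 1 library kept the call without WT replicate 2 or WT replicate 5 and ended it in each of the other 8 cases, with log2 fold changes of 3.46 to 4.09 and adjusted p of 0.0145 to 0.128. The macrophage marker sums given above were also higher in every Tumor library, and their part in its level was not tested.

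Gm5547 (ENSMUSG00000104835, chr3:105815540-105817357, plus strand, 797 bases in 5 exon blocks), a gene of no known role, had 13.1, 61.2, 58.0, 65.1 and 49.8 CPM in Tumor. In WT it had 0.3497, 2.02, 0.597, 0.370 and 2.88 CPM, which are 1 to 17 counts a library. Tumor replicate 1 stood below the other 4 Tumor libraries and still above all WT libraries. The log2 fold change was 5.47 ± 0.76 (edgeR adjusted p = 0.00341), the lowest adjusted p among the members, and the call stood without any 1 of the 10 libraries (adjusted p 0.00279 to 0.021).

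Gm11707 (ENSMUSG00000086481, chr11:106972058-106973090, minus strand, 490 bases in 2 exon blocks) had 19.7, 11.5, 26.6, 16.1 and 51.0 CPM in Tumor. In WT it had no count in replicates 1, 2 and 3, where 3 counts would be 0.525, 0.357 and 1.79 CPM, and 1.85 and 1.73 CPM in replicates 4 and 5, from 5 and 3 counts. The groups were far apart, and the log2 fold change of 5.47 ± 1.12 (edgeR adjusted p = 0.0189) rests on 8 WT counts in all. The call was lost without Tumor replicate 3 (0.0635) and without WT replicate 1 (0.0621).

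Dubr (ENSMUSG00000022639, chr16:50719294-50732773, minus strand), described as a partner of chromatin regulators in muscle precursor cells, had 28.2, 64.5, 52.3, 23.0 and 41.3 CPM in Tumor and 5.60, 5.11, 11.9, 18.1 and 6.33 CPM in WT. The groups did not overlap, but Tumor replicate 4 and WT replicate 4 were close. The log2 fold change was 2.39 ± 0.59 (edgeR adjusted p = 0.0439). Per kb its level passed the background percentile in only 2 Tumor libraries, so it is the 1 called member outside the 41. With 1 library left out it stayed called without WT replicate 4 (adjusted p = 0.0304) and lost the call in the other 9 cases (0.0575 to 0.138).

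Gm26809 (ENSMUSG00000097815, chr6:18844220-18847360, plus strand, 1219 bases from Lsm8) had 55.6, 45.5, 65.6, 80.6 and 87.1 CPM in Tumor and 4.02, 4.99, 29.8, 11.9 and 5.76 CPM in WT, without overlap. This gave a log2 fold change of 2.85 ± 0.56 (edgeR adjusted p = 0.0158), and with 1 library left out the adjusted p was 0.00757 to 0.0692. The call was lost without Tumor replicate 3 (0.0552) and without WT replicate 1. Of its longest transcript 73.2% matched transcripts of genes elsewhere at 95% identity or more, AC160336.1 among them. Which copy gave the reads is therefore uncertain.

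For the called members in the RefSeq promoter table, the 300 bases from 250 before to 50 after the start are shown (build GRCm38.p6, 5′ to 3′ on the gene's strand), because these are the genes that passed the test. Capitals mark a match to the STAT-type motif TTCNNNGAA, found in Dubr alone of the 3.
AW112010, chr19:11050517-11050816, minus strand: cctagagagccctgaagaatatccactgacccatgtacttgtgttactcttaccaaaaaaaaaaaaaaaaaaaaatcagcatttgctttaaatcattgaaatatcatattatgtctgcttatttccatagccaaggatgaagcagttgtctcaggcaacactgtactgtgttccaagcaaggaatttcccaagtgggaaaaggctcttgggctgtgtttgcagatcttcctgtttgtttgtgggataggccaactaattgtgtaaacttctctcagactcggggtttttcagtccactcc
Gm5547, chr3:105815317-105815616, plus strand: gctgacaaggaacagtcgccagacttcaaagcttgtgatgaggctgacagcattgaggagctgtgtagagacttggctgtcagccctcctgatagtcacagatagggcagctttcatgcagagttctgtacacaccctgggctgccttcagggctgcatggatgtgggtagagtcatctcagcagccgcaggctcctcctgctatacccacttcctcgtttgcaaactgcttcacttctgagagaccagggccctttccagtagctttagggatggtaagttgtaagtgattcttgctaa
Dubr, chr16:50732724-50733023, minus strand: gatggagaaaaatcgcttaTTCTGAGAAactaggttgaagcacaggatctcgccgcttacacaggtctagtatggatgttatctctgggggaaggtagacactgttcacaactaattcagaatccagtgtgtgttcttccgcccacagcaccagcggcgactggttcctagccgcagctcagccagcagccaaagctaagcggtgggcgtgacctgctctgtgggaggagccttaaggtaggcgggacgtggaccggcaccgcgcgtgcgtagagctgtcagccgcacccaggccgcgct
Gm11707 and Gm26809 have no entry there. The AW112010 window had 40% G and C with 1 CpG, that of Gm5547 52% with 3 and that of Dubr 57.3% with 19, beside medians of 52.7% and 7 over the 32851 promoters of the table. Over the 100 promoters of the 74 members that matched, the medians were 50% and 4.

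Both strands of these windows were searched for 7 motifs, and the letters of one motif may overlap those of another. TTCNNNGAA was in 8% of the members' promoters and in 8.30% of all promoters of the table. The AP-1 motif TGANTCA was in 13% against 7.81%, the interferon-stimulated response element in 5% against 3.44%, and the ETS motif CCGGAAGT in 6% against 3.89%. The CRE motif TGACGTCA was in 3% against 1.79%, and TATAAA in 14% against 13.6%. The string GGGANTTCC, used for NF-kB, was in 0% against 1.68%. NF-kB sites of other lengths or letters were not searched for, so the 0% holds for this string alone. Members with several RefSeq starts count more than once, and a match to letters is not evidence of binding.

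**Figure D3:**
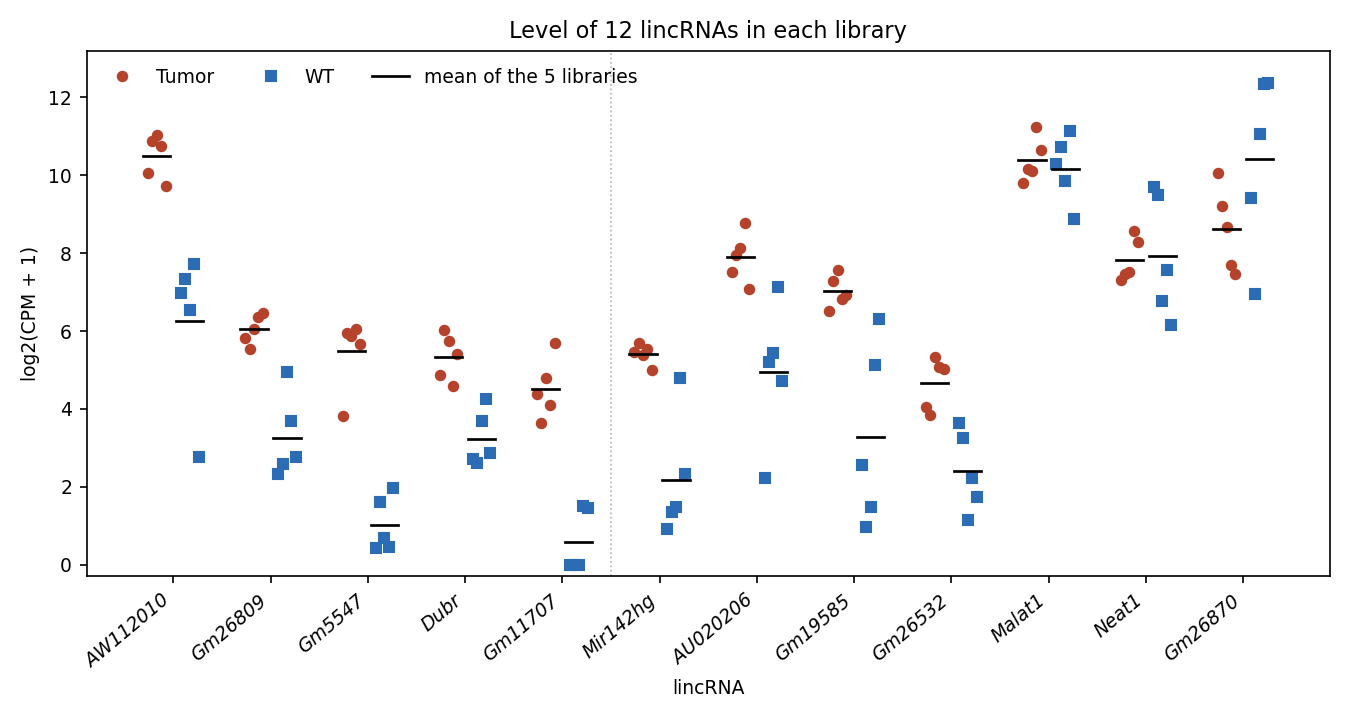
Level of 12 lincRNAs in each library as log2(CPM + 1), Tumor as circles and WT as squares, with the mean of 5 libraries as a bar. Left of the dotted line are the 5 called members, whose Tumor libraries all lie above their WT libraries. To its right are Mir142hg, Gm19585 and Gm26532 with no overlap, AU020206 with an overlap through WT replicate 4, and Malat1, Neat1 and Gm26870 with overlapping groups.

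Mir142hg had the next lowest p-value after the 5 called members. It is the host of miR-142, a blood cell microRNA that Tregs need. Gm26532 begins where the Mir24-2 hairpin ends, and it lies downstream of Mir23a and Mir27a on the same strand, within 500 bases of both. The mature microRNAs inside Mir142hg, and 3 from the hairpins just upstream of Gm26532, are shown because they tell which microRNA loci these transcripts belong to or lie beside (RefSeq, build GRCm38.p6, 5′ to 3′), with the seed, bases 2 to 8, in capitals.
miR-142a-5p, chr11:87756867-87756887, plus strand: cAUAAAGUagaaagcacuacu
miR-142a-3p, chr11:87756903-87756925, plus strand: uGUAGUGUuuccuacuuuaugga
miR-23a-3p, chr8:84208563-84208583, plus strand: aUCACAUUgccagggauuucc
miR-27a-3p, chr8:84208727-84208747, plus strand: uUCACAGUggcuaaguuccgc
miR-24-3p, chr8:84208875-84208896, plus strand: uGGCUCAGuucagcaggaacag
No 2 of these 5 share a seed. The counts are of the long transcripts only, and the mature microRNAs were not analysed here.

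Mir142hg (chr11:87755577-87757270, 269 bases) had 43.3, 50.7, 40.9, 45.2 and 31.0 CPM in Tumor, a coefficient of variation of 17.2%, where the median over the members was 59.0%. In WT it had 0.874, 1.55, 1.79, 26.7 and 4.03 CPM. WT replicate 4, the WT library with the highest sort marker sum, stood alone near the Tumor libraries. Its log2 fold change was 2.82 ± 0.80 (edgeR adjusted p = 0.0868), and 4.68 without WT replicate 4 (adjusted p = 0.00609), the only single library whose removal gave a call. Gm26532 had 15.6, 13.4, 39.1, 33.0 and 31.8 CPM in Tumor and 11.5, 8.44, 1.19, 3.70 and 2.30 CPM in WT. Its groups did not overlap, and the log2 fold change was 2.18 ± 0.75 (edgeR adjusted p = 0.162). Of the 9 microRNA host transcripts tested from a fixed list, Mir142hg being the only member among them, edgeR called 0, DESeq2 called Mir142hg higher and Mirg lower, and limma voom called Mir142hg higher. At an unadjusted p under 0.05 edgeR had 2 higher and 1 lower.

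Beyond the 5 called and these 2, Tumor libraries were above all WT libraries for Gm19585, 1810058I24Rik, Lockd and Gm17745, the last 3 named after their values were seen. Gm19585, 153125 bases from Satb1, the gene of a chromatin organizer of T cells, had 91.0, 155, 188, 113 and 119.8 CPM in Tumor and 4.90, 0.951, 1.79, 33.7 and 78.3 CPM in WT. Its log2 fold change was 2.88 ± 0.87 (edgeR adjusted p = 0.109), and it was called only without WT replicate 5 (3.86, adjusted p = 0.0326) when 1 library was left out. 1810058I24Rik, which RefSeq now types as coding for a small protein, had 81.3 to 116 CPM in Tumor and 0.597 to 55.2 CPM in WT. Lockd, a transcript just downstream of the cell cycle inhibitor gene Cdkn1b, had 40.6 to 54.3 CPM in Tumor and 3.58 to 25.1 CPM in WT. Gm17745 had 5.57 to 16.0 CPM in Tumor and 0.3497 to 2.59 CPM in WT. Their log2 fold changes were 2.01 ± 0.72, 1.73 ± 0.57 and 2.73 ± 0.87, with edgeR adjusted p of 0.179, 0.142 and 0.131. Without WT replicate 2, 1810058I24Rik was called at a log2 fold change of 2.84 (adjusted p = 0.0419).

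AU020206, of no known role, had 181, 248, 278, 441 and 134 CPM in Tumor, among the highest of the members. In WT it had 3.67, 35.9, 42.4, 139.6 and 25.3 CPM, and WT replicate 4 was above the lowest Tumor library. The log2 fold change was 2.60 ± 0.76 (edgeR adjusted p = 0.0989), and 3.53 without WT replicate 4 (adjusted p = 0.0318). Gm14005, known as Morrbid, a transcript beside the cell death gene Bcl2l11 that controls the life span of short-lived myeloid cells, had 54.3, 77.9, 49.0, 32.4 and 5.25 CPM in Tumor. In WT it had 8.39, 9.98, 13.7, 23.7 and 45.5 CPM, so the groups overlapped through Tumor replicate 5 and WT replicate 5. It had a log2 fold change of 1.48 ± 0.65 (edgeR adjusted p = 0.274).

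A fixed list of lncRNAs described in immune cells had 13 genes tested, of which edgeR called AW112010 alone, and DESeq2 and limma voom AW112010 and Mir142hg, all higher. Its members here are AW112010, Gm14005, Mir142hg, Pvt1, Mirt1, Neat1 and Malat1. Pvt1, the transcript beside Myc, had 18.2 to 31.3 CPM in Tumor and 11.4 to 126 CPM in WT, and Mirt1 8.65 to 37.0 CPM in Tumor and 19.3 to 57.9 CPM in WT. Per kb both stayed under the background percentile in all 5 Tumor libraries. A list of nuclear and chromatin lncRNAs was matched by the deposited names, which left out the member 1700020I14Rik, named Oip5os1 in RefSeq. Of its 18 genes tested edgeR called 0, with 0 higher and 2 lower at an unadjusted p under 0.05. DESeq2 called Hottip lower, and limma voom called 0. Among the 18 is 2900097C17Rik, the mouse Norad, which binds Pumilio proteins in the cytoplasm. It had 23.8 to 90.6 CPM in Tumor and 6.91 to 86.5 CPM in WT. Of its longest transcript 51.6% matched Gm7292 at 99.2% identity, so which copy gave those reads is uncertain. Meg3, an RNA expressed from the maternal chromosome, had 3.93 to 41.5 CPM in Tumor and 10.3 to 131 CPM in WT, and over its 18089 bases it was above background in no library.

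Of the snoRNA hosts, whose introns are cut into guides for ribosomal RNA modification, 4 were members. Snhg6, host of Snord87, had 30.5, 14.1, 20.01, 27.6 and 41.0 CPM in Tumor and 18.0, 30.9, 1.19, 11.5 and 3.45 CPM in WT. Snhg12, host of Snord99, Snora44 and Snora61, had 15.4, 33.1, 18.5, 14.8 and 38.8 CPM in Tumor and 16.4, 12.01, 6.56, 10.4 and 6.91 CPM in WT. The groups overlapped for both, with log2 fold changes of 0.91 ± 0.74 and 1.21 ± 0.63 (edgeR adjusted p = 0.556 and 0.352). Snhg20 had 2.05 to 38.3 CPM in Tumor and 7.04 to 17.1 CPM in WT, and Epb41l4aos 9.15 to 24.8 CPM in Tumor and 0.576 to 24.2 CPM in WT. Over the 16 snoRNA hosts tested edgeR, DESeq2 and limma voom called 0, and at an unadjusted p under 0.05 edgeR had 1 higher and 2 lower.

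In the other direction no member was called by edgeR or limma voom, and DESeq2 called Gm26870, Gm12374 and 9330158H04Rik lower. WT means were above Tumor means for 68 of the 147. The member nearest to a call was Gm12374, with 7.18, 0.982, 6.84, 16.6 and 17.8 CPM in Tumor and 46.2, 16.998, 31.6, 45.9 and 97.3 CPM in WT, which overlap only at WT replicate 2 and Tumor replicate 5. Its fitted log2 fold change was -2.15 ± 0.65 (edgeR adjusted p = 0.113). The predicted gene 9330158H04Rik had 2.002 to 19.5 CPM in Tumor and 7.01 to 138 CPM in WT. Gm32647 had 2.07 to 21.9 CPM in Tumor, and in WT 455 CPM in replicate 3 and 8.89 to 25.4 CPM in the other 4. Its log2 fold change was -2.72 ± 0.96 (edgeR adjusted p = 0.178) and -0.60 without WT replicate 3.

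The direction of these differences depends on what the libraries are scaled to. The values above use TMM, which centres most genes. A second scaling set the geometric mean of 14 pan-T markers equal in all libraries, since their summed CPM was 4686 to 6955 in Tumor and 178 to 1718 in WT. It moved the median log2 fold change of all genes from -0.20 to -3.65 and that of the members from 0.26 to -3.24. Under it edgeR called 0 members higher, where 0.0887% of all genes were, and 114 lower, where 90.9% of all genes were. At an unadjusted p under 0.05, 0 members were higher and 118 lower, and the share of all genes was not counted there. Gm11707 (2.67), Gm5547 (1.98) and AW112010 (0.23) kept a positive log2 fold change without a call, and Gm26809 (-0.18) and Dubr (-0.88) turned negative without one. Mir142hg (0.27), AU020206 (-0.10) and Gm19585 (-0.77) were not called either. The scaling lowered genes by unlike amounts. Mir142hg (0.27) came above AW112010 (0.23) and Gm19585 (-0.77) below AU020206 (-0.10), each the reverse of the first fit. A gene's place relative to the median is thus set only in part by the first fit.

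**Figure D4:**
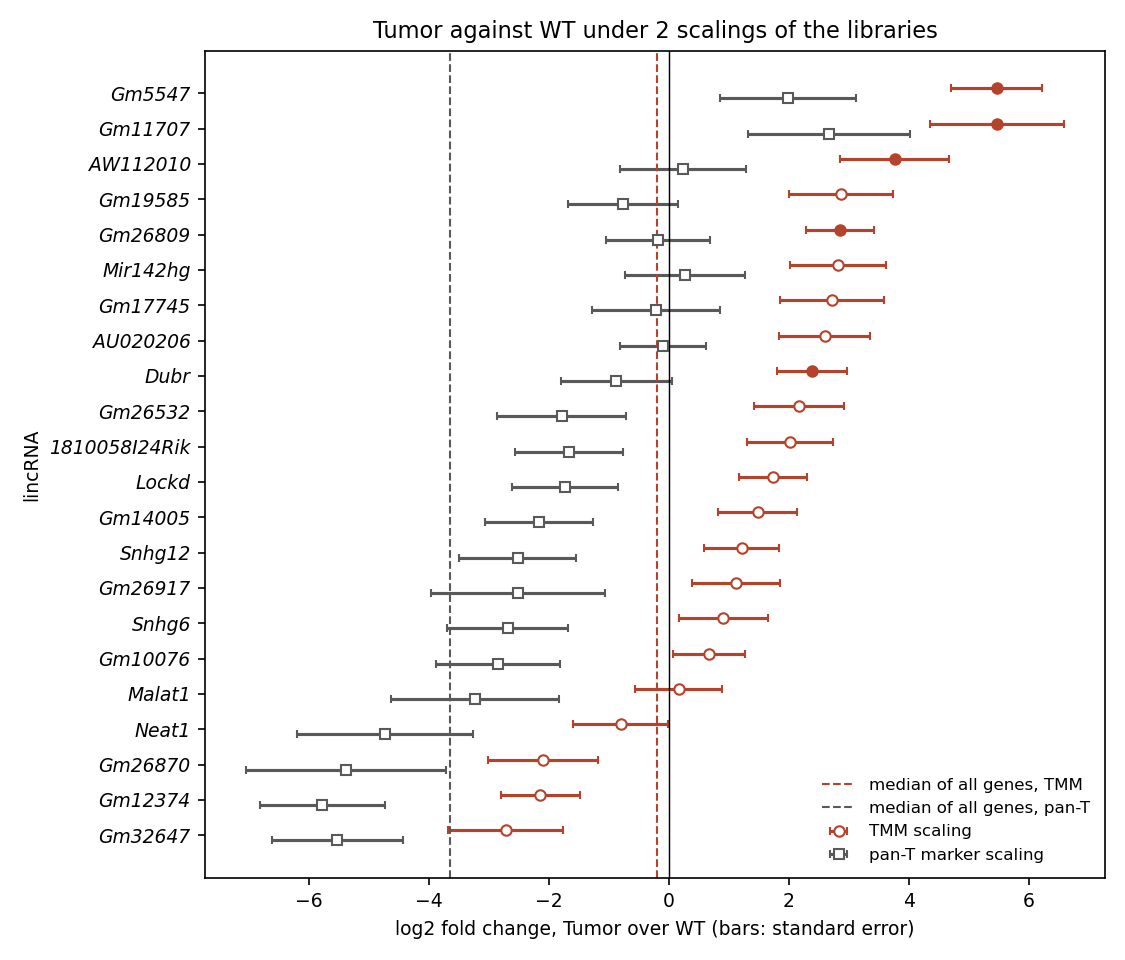
Log2 fold change of Tumor over WT for 22 lincRNAs (points, with standard errors as bars) under TMM scaling (circles, filled where called) and under scaling to pan-T markers (squares). Dashed lines mark the median of all genes tested, -0.20 with TMM and -3.65 with pan-T markers.

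Among the 41 members above background in Tumor, 4 were called (9.76%, beside 1.59% of all genes) and the median log2 fold change was 1.16. Among the other 106, 1 was called (0.943%) and the median was 0.03. The split itself uses the Tumor level, which also enters the fold change, so nothing is read from it. All lincRNA genes that could be tested numbered 1236, with a median of -0.64, 5 called higher, which are the 5 members, and 3 called lower. The level that chose the members lies behind these medians, and no test was made of them.

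The median coefficient of variation over the 5 Tumor libraries was 59.0% for the members and 44.9% for the 10596 protein-coding genes that met the rule. The levels were not matched, with a median of the mean Tumor level of 14.4 CPM for the members and 30.5 CPM for the coding genes, and lower counts vary more. For 84 members the highest Tumor library was over 5 times the lowest. The least variable, named after its value was seen, was 2310001H17Rik (11.1%), followed by Lockd (12.7%), 1810058I24Rik (15.6%) and Mir142hg (17.2%). In WT the median was 83.0%, and it was above the Tumor value for 105 members. The highest of the 10 libraries was WT replicate 3 for 32 members, WT replicate 5 for 28 and Tumor replicate 5 for 27.

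Over all 5559 lincRNA genes, which does not use the choice of members, the share of counts was 1.97% ± 0.360 in Tumor and 2.93% ± 1.34 in WT (SD, n = 5 each). The difference of -0.959 percentage points had p = 0.198 in a 2-sided exact permutation test, and the smallest p that test can give is 0.00794. Without the models of the list labelled ribosomal RNA related, Gm26870 among them, the shares were 1.56% and 2.48% (exact permutation p = 0.175, adjusted over both tests 0.198). The WT spread was wide, with 1.39% in replicate 2 and 4.32% in replicate 5. The members took 0.937% to 1.20% of counts in Tumor and 0.687% to 1.22% in WT, which overlap.

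By position, 49 of the 147 members lay within 5000 bases of a protein-coding gene or overlapped one, as did 1243 of all 5559 lincRNAs. The median gap was 22452 bases against 43420 for all lincRNAs. The span of a protein-coding gene was overlapped by 25 members, of which 9 on the same strand, and by 495 of all 5559 lincRNAs. The span of another gene of any type, coding genes included, was overlapped by 76 members. Whether strand was counted is not given in the sources used here, so reads of overlapping genes cannot be told apart. Exon bases were shared with exons of another gene for 44 members, with coding genes for 15. For 7 members 50% or more of the longest transcript matched genes elsewhere at 95% identity or more. In 10 cases the start lay within 1000 bases of the start of a coding gene on the opposite strand. These include, named for what their partners are known to do, Gm48236 at 617 bases from Ahr, the gene of the aryl hydrocarbon receptor, Gm11110 at 617 bases from Tnfsf9, the gene of the 4-1BB ligand, 9330175E14Rik at 747 bases from Nlrc5, the regulator of MHC class I genes, and Lppos at 81 bases from Lpp.

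The nearest coding genes of the 147 members were 139 distinct genes, of which 120 were tested. Of these edgeR called 4 higher (3.33%, beside 1.37% of all genes) and 0 lower, with 24 higher and 6 lower at an unadjusted p under 0.05 (7.75% and 8.31% of all genes). DESeq2 called 15 higher and 2 lower (3.49% and 4.94% of all genes), and limma voom 9 higher and 0 lower (2.12% and 0.112%). The 4 were named after their values were seen. Id2, an inhibitor of E proteins near Gm36723 and Gm47705, had 1034 to 1888 CPM in Tumor and 42.6 to 259.6 CPM in WT. Gata3, the transcription factor of type 2 helper cells that some tissue Tregs also use, lies 659601 bases from 1700061F12Rik and had 184 to 272 CPM in Tumor and 5.77 to 75.9 CPM in WT. Rac2, the GTPase of blood cells, lies 1628 bases from Gm36738 and had 489.6 to 945 CPM in Tumor and 7.87 to 113 CPM in WT. Elk3, an ETS factor 24258 bases from Gm17745, had 74.3 to 103 CPM in Tumor replicates 1 to 4, 34.5 CPM in Tumor replicate 5 and 2.39 to 35.2 CPM in WT.

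The log2 fold changes of these neighbours were 3.91 ± 0.79 for Id2, 3.33 ± 0.74 for Gata3, 3.70 ± 0.81 for Rac2 and 2.97 ± 0.72 for Elk3 (edgeR adjusted p = 0.0181, 0.0283, 0.0274 and 0.0413). None of their 5 lincRNAs was called. Gm36738, the closest to its neighbour, had 7.69 to 33.0 CPM in Tumor and 0.576 to 27.3 CPM in WT, so its groups overlapped where those of Rac2 did not. With 1 library left out the number of neighbours called ranged from 0 to 7. It was 0 without Tumor replicate 1, 2, 3 or 4 or without WT replicate 1 or 3, and 7 without WT replicate 2. Of the neighbours of the 5 called members, Ms4a8a, Rap1a, Lsm8 and Kpna2 were tested and not called, and Ccdc54 did not pass the filter on low counts.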

How the data were processed

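Whole-number counts per gene were deposited by the authors in 1 table of 10 libraries, and 10 single-sample files held the same values. Per the submitters' processing notes the tools were HISAT2 2.0.5 and featureCounts 1.5.0-p3 with mm10. Strand setting, annotation release and treatment of multiply mapped reads are not given in the sources used here. All 147 members were found in GENCODE M21, 143 with the same coordinates.

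CPM used the column totals. Background was the 95th percentile of CPM per kb over 1466 receptor genes, passed in at least 4 of 5 libraries. Tumor and WT were compared with edgeR 4.0.16 (R 4.3.3; filterByExpr defaults, TMM, robust quasi-likelihood F test, Benjamini-Hochberg over 21414 genes, called at adjusted p under 0.05). DESeq2 1.42.0, limma 3.58.1 voom, other scalings and filters, and left-out libraries were alternatives. BLAST+ 2.17.0 sought copies among the GENCODE M21 transcripts (95% identity, 100 bases or more), not in the rest of the genome. The test steps were checked on simulated data. There edgeR called 0% of 2-fold changes, 0% of 4-fold changes and 59.3% of 16-fold changes, and 1 of its 36 calls was false. A gene not called may therefore still differ. The smallest chi-square per degree of freedom over the 45 library pairs was 25.7, so 10 separate samples were used. Totals were 1676229 to 8412887 counts. Reads carry no molecular identifiers, so the floor of 3 counts covers counting error only, and the common biological coefficient of variation was 86.1%.

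Members, lists and alternatives were chosen with earlier results of these data known. Named lincRNAs are the 10 highest per kb, those called or lowest in p, members of a fixed list, the 5 highest and lowest WT to Tumor ratios, those at the threshold and those overlapping a small RNA gene, and exceptions are said to be chosen after their values were seen.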

Additional observations from a re-analysis of the deposited data

Results flagged for a closer look

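For the 38 lincRNAs that the naming rule gave and 5 measures of the libraries, each group of 5 libraries was checked for a library that stands apart, with a gap to its nearest neighbour above 0.71 of the group's range. This flagged 7 of 86 groups. The limit flags about 1 in 20 groups of independent, normally spread values. CPM values need not be spread so, and the groups share libraries, so the 7 cannot be judged by that rate. All 7 are WT libraries that stand high. WT replicate 4 stood apart for AU020206 (139.6 CPM), Mir142hg (26.7 CPM) and Gm15232 (14.8 CPM), and it is the WT library with the highest sort marker sum. WT replicate 3, the library with the lowest total and the highest B and plasma cell marker sum, stood apart for Gm32647 (455 CPM), Meg3 (131 CPM) and AC133505.2 (65.0 CPM). WT replicate 2 stood apart for Snhg20 (17.1 CPM). The part of depth and of other cells in these values was not tested.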

How the results depend on the processing

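The number of lincRNAs under the rule was 422 at 2 CPM, 61 at 10 CPM, 65 when all 5 Tumor libraries had to pass and 325 when 3 had to, and 193 to 253 with 1 Tumor library left out and the rule loosened to 3 of the 4 left. With the 99th percentile as background 19 members passed in Tumor and 6 in WT. With the 95th percentile, 1 library left out and 3 of the 4 left required, 46 to 53 passed in Tumor and 13 to 23 in WT. Genes called higher and lower were 677 and 960 by DESeq2, 455 and 24 by limma voom, 479 and 341 without the filter, 19 and 19472 under pan-T scaling, 0 and 0 after background subtraction, 1606 and 376 without WT replicates 1 and 2, 696 and 629 without WT replicates 3 to 5, and 60 to 400 and 1 to 72 with 1 library left out. The filter of 10 CPM gave 75 lower. Members called higher were 11 by DESeq2, 8 by limma voom, 8 without the filter, 10 without WT replicates 3 to 5, 0 under pan-T scaling or background subtraction, and 1 to 6 with 1 library left out. Members called lower were 114 under pan-T scaling, 3 by DESeq2, 2 without WT replicates 1 and 2, 1 without WT replicates 3 to 5, and 0 with 1 library left out. Neighbour genes called higher were 15 by DESeq2, 9 by limma voom, 9 without the filter, 15 without WT replicates 1 and 2, 14 without WT replicates 3 to 5, 0 under pan-T scaling or background subtraction and 0 to 7 with 1 library left out. Those called lower were 100 under pan-T scaling, 2 by DESeq2, 2 with 10 CPM, 1 without WT replicates 1 and 2 and 0 to 1 with 1 library left out. The difference in lincRNA share was -1.34 to -0.612 percentage points with 1 library left out. The cause of these changes was not tested.

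The replicate numbers were shared between groups. The deviations of same-numbered libraries correlated at -0.126 to 0.038, and those of differently numbered libraries at -0.197 to 0.194. With so few noisy libraries this cannot decide whether the numbers stand for a pairing. With the replicate block 138 genes were higher and 3 lower, 3 members were higher (0 lower) and 3 neighbours were higher, and AW112010 and Dubr lost their calls.

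Pan-T scaling turned the log2 fold change of Gm26809 (-0.18), Dubr (-0.88), AU020206 (-0.10), Gm19585 (-0.77), Gm26532 (-1.79), 1810058I24Rik (-1.67), Lockd (-1.74), Gm17745 (-0.22), Malat1 (-3.24), Gm26917 (-2.52), Gm10076 (-2.85), Gm14005 (-2.17), Snhg6 (-2.69) and Snhg12 (-2.52) negative. Malat1 was also negative with 10 CPM (-0.17), background subtraction (-0.34), without WT replicates 3 to 5 (-0.23), and in 3 cases with 1 library left out, which gave a range of -0.076 to 0.43. Neat1 turned positive by limma voom (0.18), with the replicate block (0.15) and without WT replicates 1 and 2 (1.26). Without WT replicates 3 to 5, Gm26870 was 0.20 and Snhg6 -0.094.

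Dubr lost its call with RLE factors (0.0796), without composition factors (0.0858), with 10 CPM (0.0821) and by limma voom (0.05). It also lost the call without mitochondrial genes and the models of the list labelled ribosomal RNA related (edgeR adjusted p = 0.0653).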
